A study of Homo sapiens with 18 samples.

Results

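The responses of A549 cells to 9 nm SM30 and 18 nm AS30 silica NPs were compared with each other 3 h after treatment. The measure was the change of each probe after SM30 minus its change after AS30, each against its own controls, on the log2 scale. It rests on 12 of the 18 arrays of the series: 3 arrays of cells given SM30 NPs, 3 of their controls, 3 of cells given AS30 NPs and 3 of theirs. Probes that are not array controls entered, except those with over 33% missing values, which kept 28665 of 41000. A549 is an established line of human lung adenocarcinoma cells with features of alveolar type II epithelium, and only this line was used. In every group the cells spent 2 h in medium without serum and then recovered for 3 h in complete medium with 10% serum, with or without NPs in the first step. The 3 arrays of a group are lettered A to C and are biological replicates by the study's own description, which gives a single concentration for both NPs. SM30 and AS30 are Ludox colloids of amorphous silica, both with a negative surface charge, and they differ in counterion as well as in diameter, so that size and counterion cannot be told apart here.

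NF-kB is a family of transcription factors held in the cytoplasm by inhibitor proteins of the IkB type. Signals from cytokine receptors, Toll-like receptors and cell stress lead to the destruction of the inhibitors, and the freed factor turns on cytokines, chemokines and, with them, genes for its own inhibitors, which close the loop. Lung epithelial cells exposed to mineral particles are known to use this pathway together with AP-1, a dimer of FOS and JUN proteins, and MAP kinases.

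The 2 particle sets shared no slide and no scan: the 12 arrays lay on 4 slides and were read in 5 scans, with SM30 arrays on slides of their own. All AS30-treated arrays at 3 h lay on one slide and all their controls on another, so that among the 12 arrays slide and AS30 treatment cannot be told apart, and a fit with slide as a block links them only through the arrays at 22 h. In the SM30 set, treated array A shared a slide with all the controls, while treated arrays B and C lay on another without controls. With slide as a block, the SM30 effect thus rested on treated array A. The controls of the sets differed. Of the probes tested, 26.8% passed the test between SM30 controls and AS30 controls and 38.6% passed it between SM30-treated and AS30-treated arrays. The third AS30 control stood apart. Over the probes measured on all 18 arrays, AS30 control C had a correlation of 0.966 to 0.97 with the other AS30 controls and of 0.978 to 0.984 with the AS30-treated arrays, while AS30 controls A and B correlated at 0.991 with each other. Its share of spots well above background was 52.4%, against 61.7% to 72.4% on the other 11 arrays. Counts of calls, and the values it moved most among the genes described, are given with and without it. The array was singled out from these same data. Leaving out a control that reads as the treated arrays do widens the AS30 change, and AS30 calls went from 1313 to 5425 probes. Calls made without it are therefore a description and no separate support. SM30 control A was scanned apart from the rest of its slide, and SM30 control C was the control farthest from its group in the SM30 set (correlation 0.977 and 0.98).

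Few single probes separated the particles when all arrays were kept. Of 28618 probes tested, 14 were called at an adjusted p under 0.05 (0.0489% of those tested), 12 with a higher response to SM30 and 2 with a lower one. The 5th to 95th percentile of the difference over all probes was -1.06 to 0.92 on the log2 scale, around a median of -0.03. Without AS30 control C, 1611 of 28987 probes were called (5.56%), 492 higher and 1119 lower, and all 14 probes were among them. Leaving out any other single array gave between 8 and 40 calls, the highest of these without SM30 control A. The fit without AS30 control C has 2 arrays in that group, which are taken to vary as much as the other groups do.

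**Figure D1:**
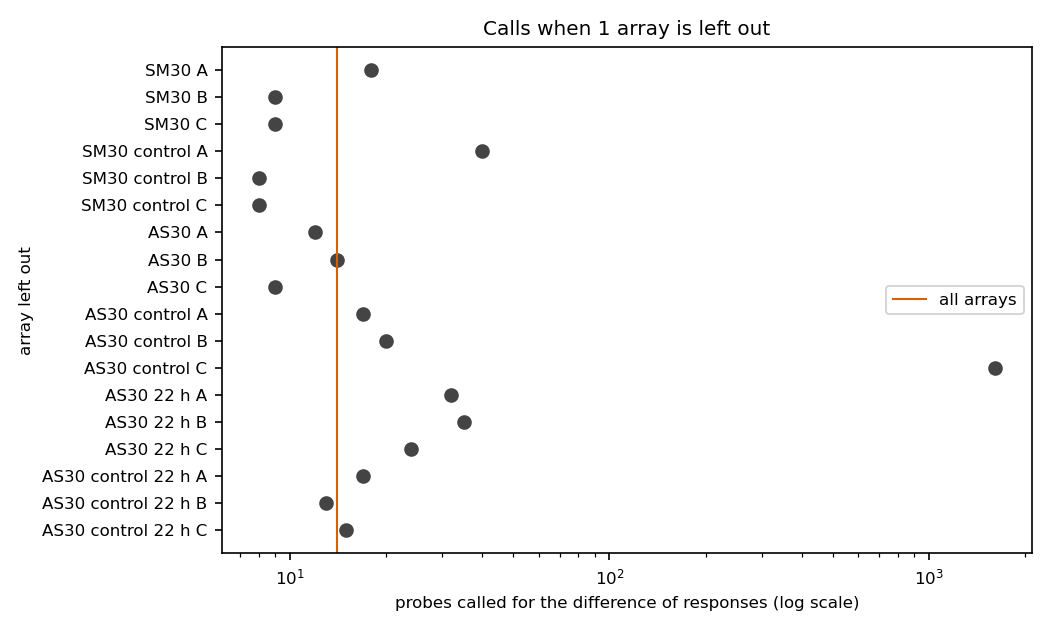
Number of probes called for the difference of responses when the array named on the vertical axis was left out, on a log scale; the line marks the 14 calls with all arrays. The count lay between 8 and 40 for 17 arrays and reached 1611 without AS30 control C.

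Of the 14 called probes, 7 were measured on all 12 arrays. In 4 of these the signal was high on the SM30-treated arrays alone. The probe of PPM1F, a protein phosphatase that acts on CaM kinase and PAK, read 10.31, 10.80 and 10.58 after SM30 and 6.94, 7.13 and 6.98 in the SM30 controls. After AS30 it read 6.93, 7.61 and 7.03, and the AS30 controls read 7.65, 7.40 and 6.53. Every SM30-treated array was thus above every other array, and the difference of responses was 3.56 ± 0.47 (SE, adjusted p = 0.0092). The probe of CCDC66, a microtubule and centrosome protein, read 9.16, 10.06 and 10.01 after SM30, and every other array lay between 5.90 and 6.91 (difference 3.13 ± 0.35, adjusted p = 0.0023).

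The same shape was seen for BCR, the RhoGAP protein known from the fusion with ABL, and for RBM22, a splicing factor. BCR read 10.62, 11.11 and 11.39 after SM30 against 8.44, 8.64 and 8.52 in the SM30 controls, and 9.20 to 9.56 on the 6 AS30 and AS30 control arrays (difference 2.44 ± 0.27, adjusted p = 0.0023). RBM22 read 10.24, 10.27 and 10.57 after SM30 and 5.68 to 7.13 on the other 9 arrays (difference 3.03 ± 0.49, adjusted p = 0.041). RBM22 lost its call under 11 of the 18 removals of an array and was called under the others.

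Other probes of these genes did not follow. PPM1F has a second probe, with a difference of -0.10 ± 0.32, and the second RBM22 probe gave 0.53 ± 0.28. The 6 other BCR probes lay between -0.32 and 0.65, and the second CCDC66 probe gave -1.22 ± 0.42. Over all called genes, 13 further probes of 7 genes were tested and none was called, with differences from -1.22 to 1.13. The rises of PPM1F, CCDC66, BCR and RBM22 therefore belong to 1 probe each, and whether those probes read the named transcripts was not tested. With slide as a fixed block all 4 lost their calls (adjusted p 0.24 to 0.97).

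TRAF1 differed in another way. TRAF1 is an adaptor that binds receptors of the TNF family, and its gene is a known NF-kB target. Its signal was 10.75, 11.07 and 10.81 after SM30 and 10.37, 10.91 and 10.65 after AS30, which overlap. The SM30 controls read 8.46, 8.67 and 8.78 and the AS30 controls 9.77, 9.91 and 9.61, with a gap of about a log2 unit between the sets. TRAF1 rose by 2.23 ± 0.15 after SM30 and by 0.88 ± 0.15 after AS30 (adjusted p = 8.4e-06 and 0.0057), and the difference of the responses was 1.35 ± 0.21 (adjusted p = 0.033), a factor of 2.55. Its size sat in the controls: the treated arrays of the sets differed by 0.23 ± 0.15 (adjusted p = 0.23) and the controls by -1.12 ± 0.15 (adjusted p = 0.00028). A second TRAF1 probe gave 1.13 ± 0.36 (adjusted p = 0.24). TRAF1 passed under 19 of 32 alternatives, always with a positive sign, and its adjusted p was 0.012 without AS30 control C.

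The 2 probes called lower were those of TRGV5, a variable segment of the T-cell receptor gamma locus, and of LOC138652, a predicted locus. TRGV5 read 6.01, 5.59 and 5.71 after SM30 and 6.30, 6.31 and 6.62 in the SM30 controls. It read 6.54, 6.73 and 6.68 after AS30 and 5.65, 5.78 and 5.96 in the AS30 controls. The probe thus fell after SM30 by 0.64 and rose after AS30 by 0.85, with no overlap in either set, and the responses differed by -1.49 ± 0.21 (adjusted p = 0.015). LOC138652 was not well above background on any AS30 control array, and its change after AS30 was not called (adjusted p = 0.13).

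A probe on chromosome 2 with no gene name in the files, A_32_P32876 (hg18, bases 62116020 to 62116079), gave the highest difference among probes measured on all 12 arrays, 4.76 ± 0.51 (adjusted p = 0.0023). It read 8.23, 8.54 and 8.62 after SM30 against 6.28, 5.84 and 5.39 in its controls, and 5.43, 4.77 and 5.04 after AS30 against 7.04, 6.58 and 8.02. The treated arrays moved apart, up in the SM30 set and down in the AS30 set.

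The other 6 called probes, each higher, lacked measured values in at least 1 group. LIPG, ZNF552 and A_24_P392414 were not well above background on any AS30 or AS30 control array, so that no size is given for their AS30 response, and another ZNF552 probe had a difference of -0.39 ± 0.30. The calls for C15orf40, U88316 and A_32_P124887 rested on AS30 controls measured on 2, 1 and 1 arrays. In U88316 a single AS30 control read 9.53 where the SM30 arrays and their controls lay between 3.26 and 4.90. The C15orf40 probe is placed on chromosome 6 in the files while the gene lies on chromosome 15, and the gene's other 2 probes gave 0.03 and 0.22.

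**Figure D2:**
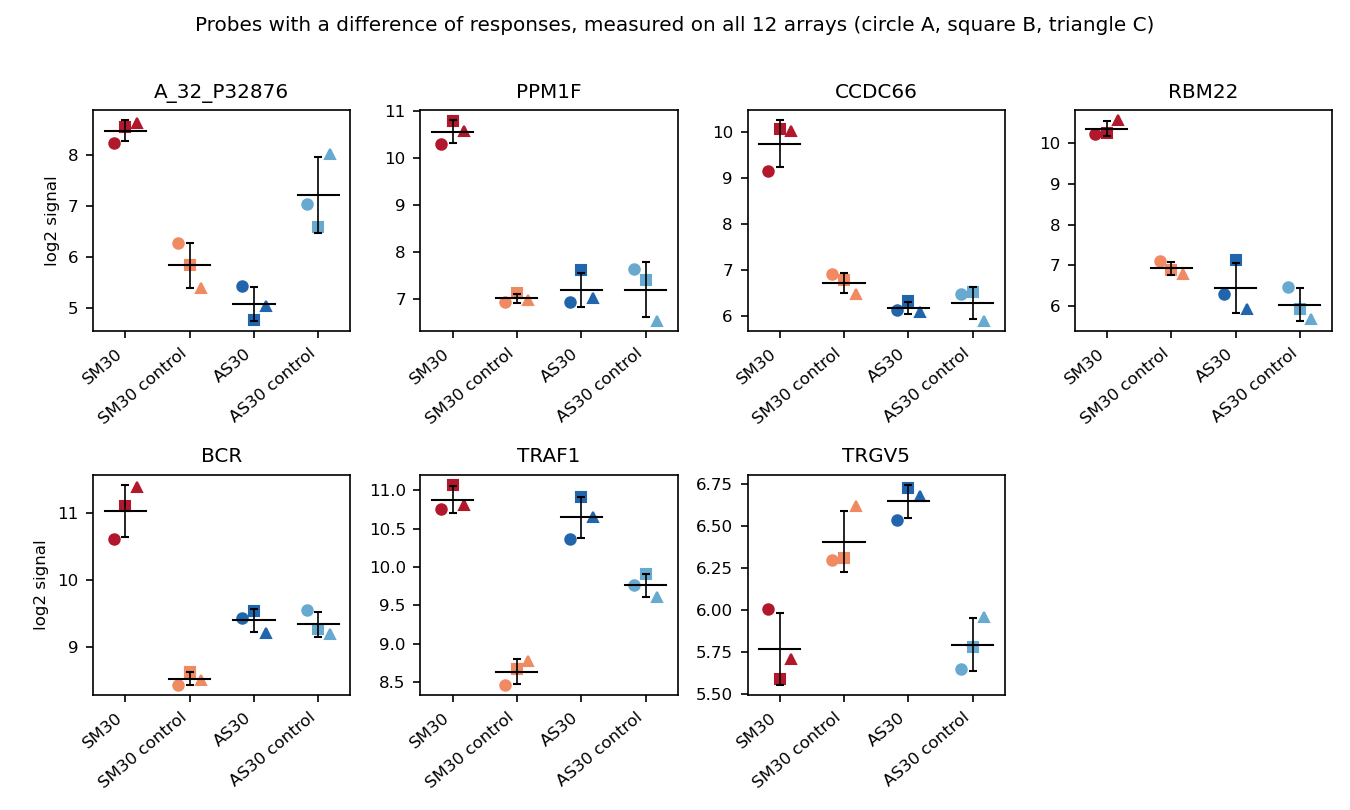
Signal (log2) of the 7 called probes measured on all 12 arrays, by group; points are arrays, long bars group means and error bars the SD of 3 arrays. PPM1F, CCDC66, BCR and RBM22 were high on SM30-treated arrays alone, while the TRAF1 signals of both treated groups overlapped and the controls differed.

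Beyond single calls, NF-kB subunits and their feedback inhibitors leaned toward SM30. Of 18 genes, 17 had a positive difference (94.4%, against 47.4% of the 13992 genes tested), and the median was 0.57, against -0.02 over all genes. At an unadjusted p under 0.05, 8 were higher after SM30 and none was lower, where 4.28% of all genes were higher and 6.4% lower. One of them, TRAF1, was called with all arrays. After SM30 against its controls, 13 of the 18 genes were called higher and none lower (4.96% and 5.09% of all genes). After AS30 it was 3 higher and none lower (2.61% and 2.56% of all genes), and without AS30 control C 3 higher and 3 lower (9.06% and 10.7% of all genes). The 3 then called lower after AS30 were NFKBIE, by -1.05, BIRC3, by -0.77, and REL, by -0.66.

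Without AS30 control C, 7 of the 18 genes were called with a higher response to SM30 and none with a lower one, where 1.4% of all genes were called higher and 3.13% lower. These were TRAF1, NFKBIE, NFKB1, BIRC3, BIRC2, RELB and TNIP1, of which NFKBIE, BIRC3 and BIRC2 were not called after SM30 with all arrays (0.28, 0.21 and 0.53). The median difference was then 0.70. Over the 32 alternatives the list's median stayed between 0.43 and 0.70.

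Among the inhibitors, NFKBIE, which encodes IkB-epsilon, read 11.95, 11.87 and 11.89 after SM30 and 11.55, 11.64 and 11.67 in the SM30 controls. After AS30 it read 11.45, 11.37 and 11.50, and its controls A and B read 12.39 and 12.59. AS30 control C read 11.48, inside the range of the treated arrays. The difference was 1.00 ± 0.29 with all arrays (adjusted p = 0.22) and 1.34 ± 0.15 without that control (adjusted p = 0.0017). TNFAIP3, which encodes the ubiquitin-editing inhibitor A20, read 8.92, 8.83 and 8.83 after SM30 and 7.17, 6.98 and 7.29 in the SM30 controls. It read 7.58, 7.45 and 7.41 after AS30 against 7.31, 7.26 and 5.85, and its rise was called after SM30 (1.71 ± 0.38, adjusted p = 0.012) but its difference was not (1.04 ± 0.53, adjusted p = 0.42, and 0.056 without AS30 control C). NFKBIA, the prototype inhibitor, had a difference of 0.08 ± 0.22, and NFKBIZ, a nuclear inhibitor-like protein, of 0.72 ± 0.31.

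Of the subunits, NFKB1 and RELB carried positive differences and RELA did not. NFKB1 read 12.13, 12.06 and 12.08 after SM30 against 11.39, 11.31 and 11.42, and 12.20, 11.87 and 12.07 after AS30 against 12.50, 12.36 and 11.60. The treated groups overlapped and the SM30 controls lay below the AS30 controls by 0.78 ± 0.18 (adjusted p = 0.0076). The difference of NFKB1 was 0.83 ± 0.26 (adjusted p = 0.24, and 0.015 without AS30 control C). RELA rose by the same amount in both sets, 0.45 ± 0.12 after SM30 and 0.46 ± 0.12 after AS30, both called, and the 95% interval of its difference was -0.36 to 0.34. NFKB2 and REL had differences of 0.33 ± 0.22 and 0.47 ± 0.30.

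BIRC2 and BIRC3, ubiquitin ligases of TNF receptor complexes, had differences of 0.61 ± 0.23 and 0.63 ± 0.32 with all arrays, and of 0.83 ± 0.16 and 0.98 ± 0.21 without AS30 control C (adjusted p = 0.018 and 0.021). TNIP1, a partner of A20, had 0.62 ± 0.20 (adjusted p = 0.26, and 0.029 without that control). Where a gene of this list had further probes they pointed the same way: 6 second probes of 5 genes had differences from 0.18 to 1.32, and over all 24 probes of the list 23 were positive.

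The list's difference had a treated and a control side. The median of SM30-treated minus AS30-treated arrays was 0.25 and that of SM30 controls minus AS30 controls was -0.37. TRAF1, NFKB1 and TNIP1 differed mostly between the controls, TNFAIP3, NFKBIZ, BIRC2 and REL mostly between the treated arrays. With slide as a fixed block, 4 genes of the list had an unadjusted p under 0.05 for the difference, and 2 and 0 were called higher after SM30 and AS30.

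**Figure D3:**
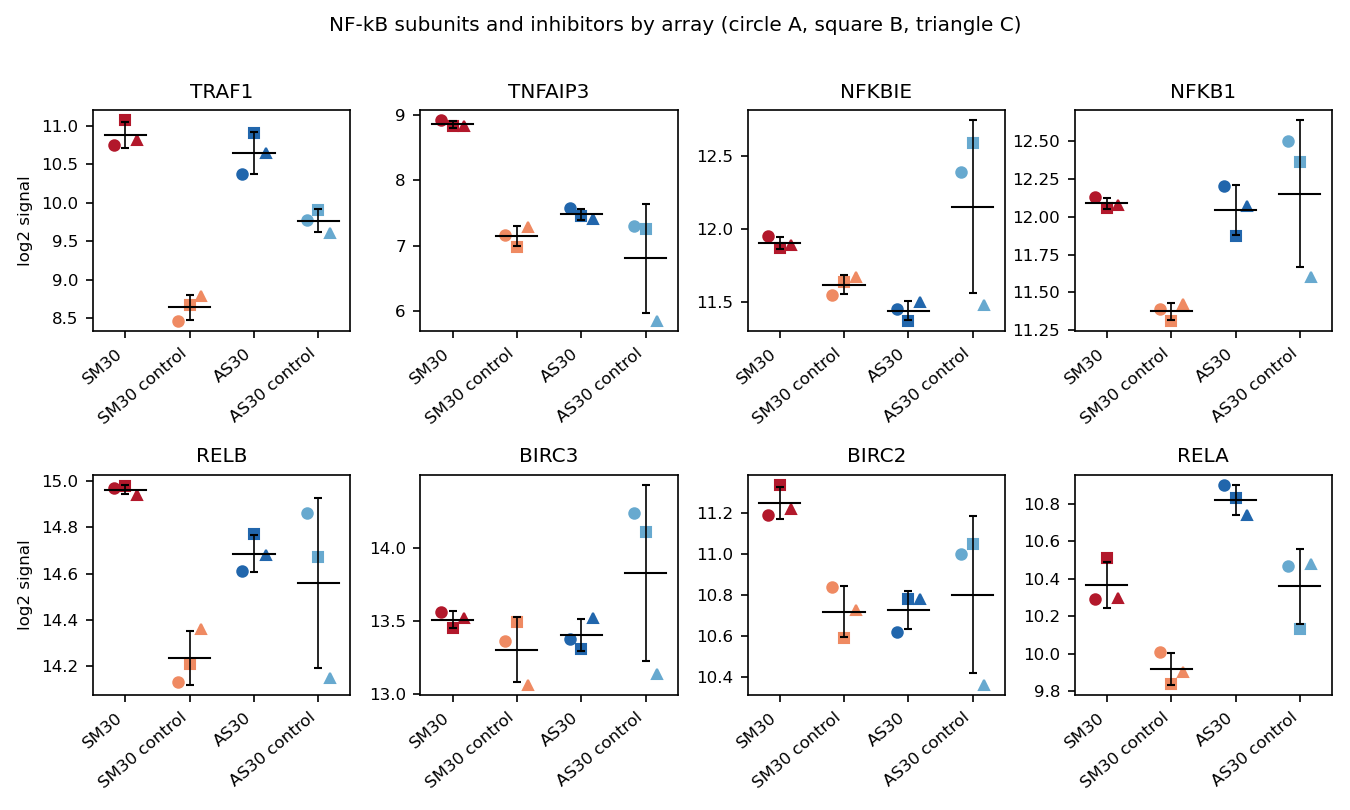
Signal (log2) of 8 NF-kB subunits and regulators by group; points are arrays (triangles are C), long bars group means and error bars the SD of the measured arrays. In NFKBIE, NFKB1, RELB, BIRC2, BIRC3 and TNFAIP3 the AS30 control C triangle lies below the other AS30 controls.

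**Figure D4:**
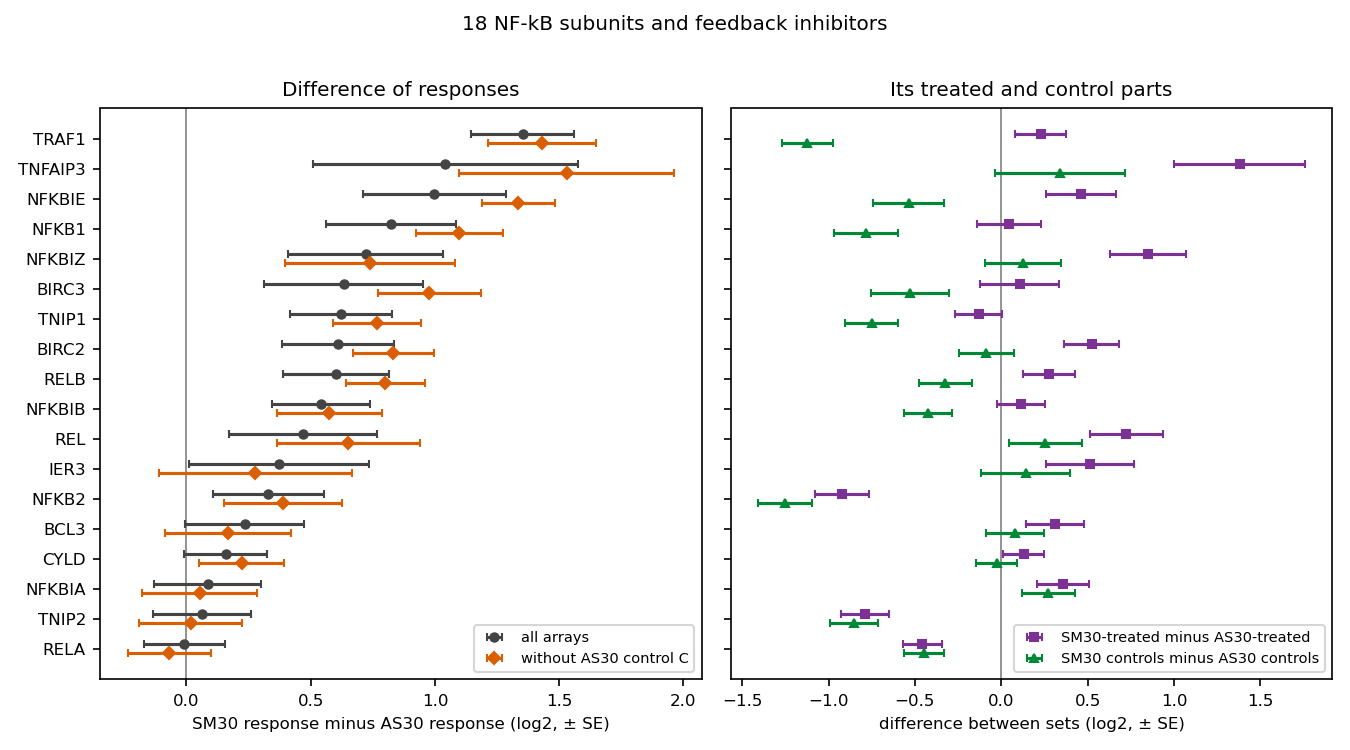
Left, difference of responses for the 18 genes with all arrays and without AS30 control C; right, the same contrast split into treated arrays and controls; bars are SE, in log2 units. Of the 18 genes, 17 are positive with all arrays, and TRAF1 differs by 0.23 between treated arrays and by -1.12 between controls.

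Promoter windows of these genes, taken from RefSeq (GRCh38.p14) around the start site, were searched on both strands for a pattern of the kB type, GGGNN followed directly by TTTCC. Windows were found for 15 of the 18 genes, and 6 of them held it (40%), against 1.92% of 27305 windows. Many members of the list are textbook NF-kB targets, so the share describes the list and not the response. The AP-1-type letters TGANTCA were in 0 of the 15 windows and in 7.76% of all. A match is a description and not a bound site. The windows printed here belong to NFKB1, TNFAIP3 and NFKBIA, a subunit and 2 inhibitors whose differences were 0.83, 1.04 and 0.08, each printed along its gene's own strand with the matching letters in capitals. They lie at chr4:102501265-102501364 on the plus strand (NFKB1), chr6:137867147-137867246 on the plus strand (TNFAIP3) and chr14:35404776-35404875 on the minus strand (NFKBIA), with the first match starting 49, 67 and 81 bases before the start site. TNFAIP3 holds 2 matches.
NFKB1: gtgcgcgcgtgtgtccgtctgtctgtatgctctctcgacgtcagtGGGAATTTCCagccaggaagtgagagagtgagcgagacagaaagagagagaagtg
TNFAIP3: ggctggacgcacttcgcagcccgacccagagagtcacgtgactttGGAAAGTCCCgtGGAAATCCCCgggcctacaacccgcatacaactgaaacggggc
NFKBIA: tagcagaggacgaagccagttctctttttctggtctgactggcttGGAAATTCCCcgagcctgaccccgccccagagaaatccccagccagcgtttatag

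Cytokines and chemokines leaned toward SM30 without a call for the difference. The median difference was 0.63 over 10 chemokines and 0.59 over 12 cytokines and growth factors. In each list 1 gene was higher at an unadjusted p under 0.05 (4.28% of all genes). After SM30, 3 chemokines and 4 cytokines were called higher (4.96% of all genes), after AS30 1 and 1 (2.61% of all genes). CCL20, which draws dendritic cells and lymphocytes through CCR6, read 9.26, 9.29 and 9.09 after SM30 against 5.88, 6.06 and 5.95, and 7.20, 8.79 and 7.67 after AS30 against 5.85, 6.35 and 5.61. CCL20 rose in both sets, by 3.25 ± 0.33 and 1.95 ± 0.33 (adjusted p = 0.00022 and 0.0093), and every SM30-treated array was above every AS30-treated one. The difference was 1.30 ± 0.46 (adjusted p = 0.29).

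IL6, the acute-phase cytokine, read 11.17, 11.09 and 10.94 after SM30 against 9.09, 9.06 and 9.12, and 9.33, 8.69 and 7.67 after AS30 against 8.95, 9.86 and 7.42. The AS30-treated arrays and their controls scattered widely and overlapped, and the difference of 2.15 ± 1.02 was not called (adjusted p = 0.38), nor that of 2.81 ± 0.99 without AS30 control C (adjusted p = 0.11). TNF read 5.76, 6.03 and 6.21 after SM30 and 4.81, 5.31 and 5.60 after AS30, and was not well above background on any AS30 control, so that no size is given for its AS30 response. Its difference as fitted was 1.20 ± 0.36 (adjusted p = 0.24), and a second TNF probe, measured on all 12 arrays, gave 0.10 ± 0.24. IL1B had 0.71 ± 1.23 (95% interval -1.92 to 3.34), which became 1.52 without AS30 control C and 0.11 without AS30 control B, and the neutrophil attractants CXCL8 and CXCL2 had 0.94 ± 0.80 and 0.86 ± 0.53. No chemokine or cytokine of these lists was called without AS30 control C either.

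Prostaglandin genes had a median difference of 0.61 over 11 genes, 0 of them called. PTGS2, the inducible cyclooxygenase, read 12.12, 11.90 and 11.91 after SM30 against 10.07, 9.98 and 9.82, and 11.16, 11.18 and 10.79 after AS30 against 10.70, 10.85 and 8.55. It was called higher after SM30 (2.02 ± 0.59, adjusted p = 0.046) and not after AS30, and its difference was 1.01 ± 0.83 (adjusted p = 0.62), with 1.75 without AS30 control C (adjusted p = 0.15) and 0.60 without AS30 control B. Over the 32 alternatives the median of the list ran from 0.12 to 0.77.

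Immediate-early and AP-1 genes had a median difference of 0.38 over 20 genes. Of these, 3 were higher at an unadjusted p under 0.05 (4.28% of all genes) and none was called. JUN read 13.98, 13.90 and 14.01 after SM30 against 12.82, 12.60 and 12.43, and 13.00, 13.13 and 13.27 after AS30 against 12.94, 12.33 and 12.99. The SM30 arrays stood clear of all others, and JUN rose by 1.35 ± 0.22 (adjusted p = 0.0017) and by 0.38 ± 0.22 (adjusted p = 0.30), with a difference of 0.97 ± 0.31 (adjusted p = 0.24). FOSL2 had 0.39 ± 0.16 and MYC 0.63 ± 0.28. KLF6 rose in both sets, by 2.17 and 1.49, and FOSB and KLF10 had the highest and lowest differences, 2.06 ± 1.24 and -1.01 ± 1.38. The KLF10 value rested on SM30 array B, which read 6.59 against 11.93 and 11.75, and was 0.74 without it. Of 15 MAP kinase feedback genes, 4 were called higher after SM30 (4.96% of all genes) and 4 after AS30 (2.61% of all genes), and the same 4 phosphatases, DUSP5, DUSP8, DUSP10 and DUSP16, made up both counts. DUSP16 rose by 1.31 ± 0.15 and 0.75 ± 0.15, with a difference of 0.55 ± 0.21 (adjusted p = 0.29). DUSP10 rose 8.35-fold after SM30 (3.06 on the log2 scale) and at least 3.91-fold after AS30, whose controls were not well above background.

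As a list, the matrix metalloproteinases did not lean toward SM30, while MMP1 and MMP10 had positive differences that were not called. MMP1, interstitial collagenase, read 11.76, 11.78 and 11.47 after SM30 against 4.32, 4.75 and 4.66, and 11.05, 12.41 and 11.56 after AS30 against 5.99, 6.58 and 4.32. The treated arrays of the sets overlapped and their means differed by -0.00 ± 0.85. Both rises were called, 7.09 ± 0.85 and 6.04 ± 0.85, and the difference of 1.05 ± 1.20 was not (adjusted p = 0.74, 95% interval -1.56 to 3.66, so that a difference in either direction of more than a log2 unit cannot be told from these arrays). It was 1.70 without AS30 control C (adjusted p = 0.43) and 0.58 without AS30 control B. MMP10, stromelysin-2, rose by 4.60 and 3.38, with a difference of 1.22 ± 0.60 (adjusted p = 0.41). MMP9 had a difference of 0.25 ± 0.22 and MMP2, near background, -0.05 ± 0.33. Over the 15 tested genes of metalloproteinases and their inhibitors the median difference was -0.05, with 0 higher and 3 lower at an unadjusted p under 0.05 (4.28% and 6.4% of all genes). These 3 were MMP19, MMP24 and MMP28, and MMP28 was called lower without AS30 control C (-1.18 ± 0.27, adjusted p = 0.028).

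Among 22 caspases and death receptors and among 16 BCL2 family genes, 1 each was called higher and 1 each lower once AS30 control C was left out (1.4% and 3.13% of all genes), and none with all arrays. CASP8, the initiator caspase of death receptors, read 10.41, 10.57 and 10.17 after SM30 against 10.81, 11.15 and 12.17, and 13.38, 13.35 and 13.30 after AS30 against 11.74, 11.75 and 13.35. AS30 control C again read as the treated arrays did, and the difference was -2.06 ± 0.60 with all arrays (adjusted p = 0.22) and -2.59 ± 0.49 without it (adjusted p = 0.017). The gene's 2 other probes gave -0.16 and -0.30. BCL2 showed the same layout, with 11.31 and 11.42 in AS30 controls A and B, 13.46 in C and 12.74 to 13.25 after AS30 (difference -1.22 ± 0.67 with all arrays and -1.92 ± 0.46 without C, adjusted p = 0.45 and 0.032), while its second probe gave 0.28 ± 0.47. FAS, a death receptor, and PMAIP1 were the genes called higher, FAS with 0.85 ± 0.20 (adjusted p = 0.030). PMAIP1, the BH3-only protein NOXA, had a higher response to SM30: 0.71 ± 0.27 with all arrays and 0.96 ± 0.21 without C (adjusted p = 0.30 and 0.022). Over the BCL2 family and over caspases and death receptors the medians were -0.03 and 0.03. ATM, which the article ties to apoptosis, was well above background on 1 SM30-treated array and on no SM30 control. Its difference as fitted was 1.73 ± 1.77 (adjusted p = 0.71), and a second ATM probe gave -0.21 ± 0.52.

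Metallothioneins, which bind zinc and copper, had the highest median of the 31 lists with all arrays, 0.72 over 9 genes, with 3 higher and 1 lower at an unadjusted p under 0.05 (4.28% and 6.4% of all genes) and none called. Without AS30 control C the median of chemokines was higher, 0.92 against 0.88. None of the 9 was called higher after either NP, and 1 was called lower after each. MT1X read 13.67, 13.73 and 13.72 after SM30 and 13.51, 13.43 and 10.75 in the SM30 controls, so that its difference of 1.75 ± 0.77 leans on SM30 control C and was 0.84 without it. MT1E had 0.85 ± 0.34 and MT1B 0.74 ± 0.33. Metallothionein genes are close copies of each other, and cross-hybridization between their probes was not tested. MT3 went the other way, -0.86 ± 0.28 with all arrays and -1.10 ± 0.23 without AS30 control C (adjusted p = 0.25 and 0.021), while its second probe gave 0.10 ± 0.59.

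In DNA replication and mitosis genes the median difference was small and the medians of both responses were below 0. The median response was -0.37 after SM30 and -0.41 after AS30 over 31 S phase genes, and -0.44 and -0.44 over 27 mitosis genes, with median differences of 0.04 and 0.02, which became 0.23 and 0.15 without AS30 control C. After AS30, 4 of the 31 S phase genes were called lower with all arrays and 17 without that control (2.56% of all genes with all arrays and 10.7% without it). No gene of these lists was called for the difference, with all arrays or without AS30 control C. Among p53 targets CDKN1A, the cell cycle inhibitor p21, rose after both NPs, by 1.35 ± 0.11 and 0.76 ± 0.11 (both called), with a difference of 0.59 ± 0.15 (adjusted p = 0.19). It read 12.93, 13.07 and 12.86 after SM30 against 11.71, 11.59 and 11.53, and 13.36, 13.16 and 13.28 after AS30 against 12.64, 12.35 and 12.53.

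Stress and metabolic lists had medians closer to that of all genes. The median differences were 0.06 for NRF2 targets, -0.03 for heat shock genes, -0.02 for unfolded protein and ATF4 response genes, 0.14 for cholesterol biosynthesis, 0.13 for lysosome genes, 0.10 for endocytosis and coat genes, 0.03 for interferon-stimulated genes and 0.02 for Toll-like receptors, adaptors and kinases. Of 23 cholesterol genes, 18 had a positive difference (78.3%, against 47.4% of all genes). Without AS30 control C, 1.4% of all genes were called higher and 3.13% lower. In that fit 2 of 18 heat shock and 1 of 23 interferon-stimulated genes were called lower. Called higher were 1 of 33 lysosome and 1 of 36 endocytosis and coat genes. Of 24 unfolded protein and ATF4 response genes, 1 was then called higher and 2 lower, and none with all arrays. The 2 lower were DDIT4, a stress-induced inhibitor of mTOR signalling, and CHAC1, a glutathione-degrading enzyme of the ATF4 response. DDIT4 had -0.97 ± 0.28, and -1.22 ± 0.23 without AS30 control C (adjusted p = 0.22 and 0.017). CHAC1 had -0.59 ± 0.21 and -0.78 ± 0.17 (adjusted p = 0.28 and 0.022). SLC7A11 went the other way, with 0.61 ± 0.29, and 0.88 without that control. GAPDH had -0.08 ± 0.16 and the 12 reference genes a median of 0.02, which became 0.13 without AS30 control C.

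**Figure D5:**
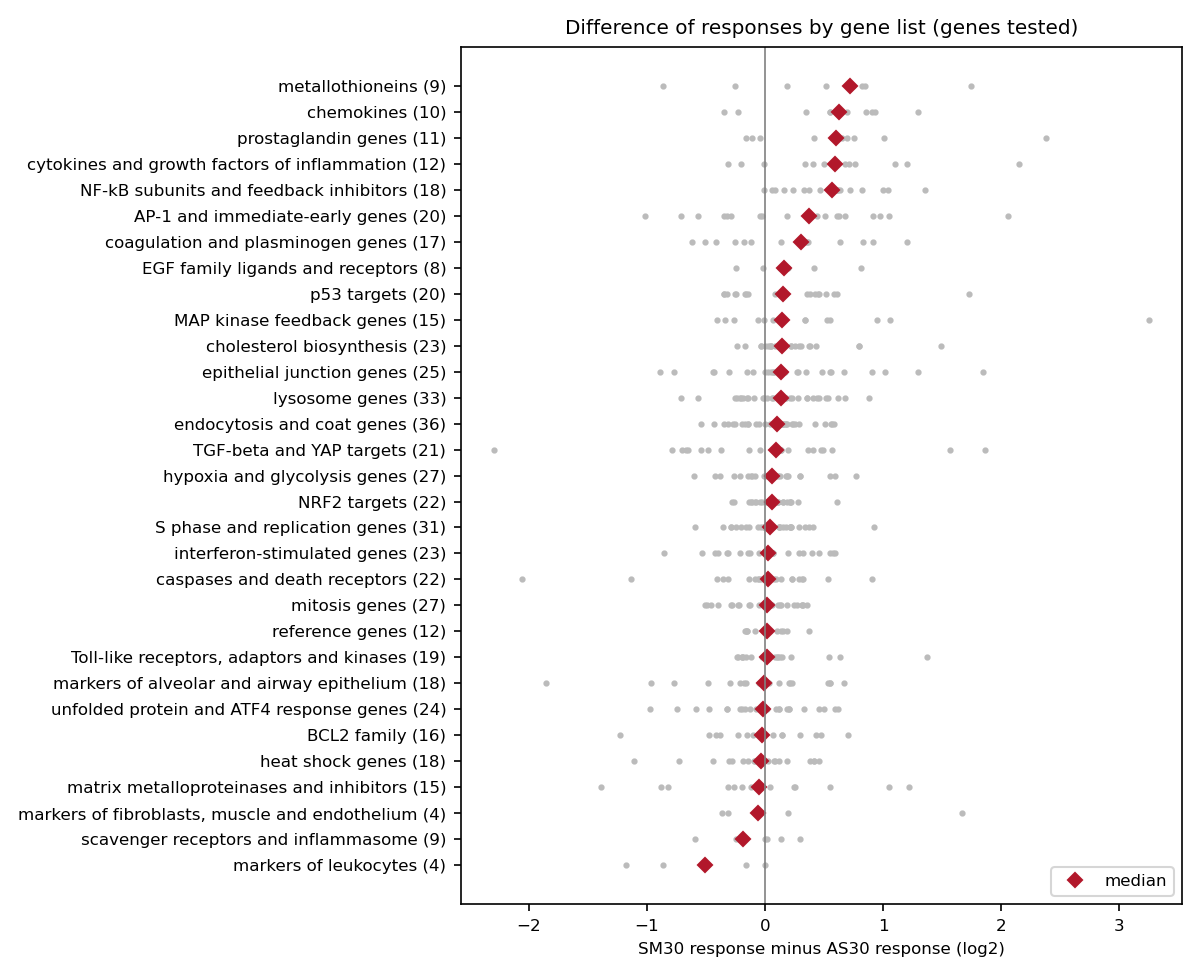
Difference of responses (log2) of every tested gene in 31 lists; grey points are genes, diamonds list medians, and the number of genes is in parentheses. Medians run from -0.51 for 4 leukocyte markers to 0.72 for 9 metallothioneins, and the median over all genes was -0.02.

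Among genes measured on all 12 arrays and well above background in at least 3 groups, the highest differences at an unadjusted p under 0.05 were those of PPM1F, CABP7, CCDC66, IRX5, RPA4, ADTRP, SMARCA4 and FAM90A1. CABP7, a calcium-binding protein of the Golgi, read 11.50, 12.10 and 12.11 after SM30 against 6.83, 6.39 and 6.25, and a mean of 6.87 after AS30, with AS30 controls not well above background (difference as fitted 3.27 ± 0.80, adjusted p = 0.17). IRX5 and RPA4 were likewise highest on all 3 SM30 arrays, with differences of 3.06 ± 1.12 and 2.65 ± 0.99. The IRX5 value leaned on SM30 control C, which read 6.74 against 9.85 and 9.49, and was 2.08 without it. A second IRX5 probe gave 0.22 ± 0.30. SMARCA4, the BRG1 ATPase of SWI/SNF complexes, read 13.41, 14.21 and 14.24 after SM30 and 10.78 to 11.88 on the other 9 arrays (difference 2.32 ± 0.46, adjusted p = 0.095), while its other probes gave 0.26 ± 0.16 and 1.25 ± 0.35. ADTRP and FAM90A1 owed their values to the AS30 side: ADTRP read 7.20, 6.79 and 8.03 in the AS30 controls and 4.36 to 5.44 on the other 9 arrays.

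The lowest 8 were ASB16, CYB561D1, ANKDD1A, ACBD4, TMEFF2, FOXC2, CYP2B6 and R3HDM2, with differences from -2.51 to -2.10 and adjusted p from 0.22 to 0.36. In all 8 the AS30 control C value lay with the AS30-treated arrays and above AS30 controls A and B, as in CYP2B6, a drug-metabolizing cytochrome, with 8.99, 9.59 and 9.23 after AS30 and 7.21, 7.39 and 9.29 in its controls. Without that array all 8 were called, with differences from -2.66 to -3.59. SM30 control C also stood apart in ASB16 (10.31 against 8.19 and 8.65) and in R3HDM2 (13.21 against 11.23 and 11.63). Without SM30 control C their differences were -1.87 and -1.5. The TMEFF2 probe is placed on the mitochondrial chromosome in the files. Further probes were closer to 0: -0.19 for ACBD4, -0.85 for ASB16, -0.02 for TMEFF2, 0.60 for CYP2B6, and -0.58 and -0.27 for R3HDM2.

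Markers of the line were as its label says, in part. Of 18 markers of alveolar and airway epithelium, 14 were well above background on all 12 arrays, keratins KRT8 and KRT18 at 15.96 to 17.49, while surfactant gene SFTPB was well above background on 1 array and LAMP3 on 6. Of 12 leukocyte markers 3 were above background on all 12 arrays and 6 on none, PTPRC and HLA-DRA among them, and of 12 markers of fibroblasts, muscle and endothelium 2 and 5. The log2 of the summed signals of leukocyte markers was 10.43 to 10.49 after SM30 and 9.91 to 9.98 in its controls. It was 10.83 to 10.97 after AS30 and 10.16 to 10.51 in those controls, and was led by CD68. The part of these markers in the differences above was not tested. Of the 18 epithelial markers, 9 had a positive difference, up to 0.67 for CDH1, and the median was -0.01. At an unadjusted p under 0.05, 4 were lower and 0 higher (6.4% and 4.28% of all genes). The lowest, SLC34A2, AQP5 and SFTPC, had differences as fitted of -1.86 ± 0.52, -0.96 ± 0.28 and -0.77 ± 0.25 with all arrays. SLC34A2 was not well above background on any AS30 control. Its value leaned on SM30 control C, which read 5.81 against 4.01 and 4.44, and was -1.32 without it. AQP5 and SFTPC were called lower without AS30 control C (-1.17 ± 0.26 and -0.97 ± 0.23), where 3.13% of all genes were.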

How the data were processed

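RNA from the 12 arrays at 3 h was read on one-colour Agilent arrays, 1 scanner file each, and the authors deposited spot intensities written by Agilent Feature Extraction together with a value table. The scanner's processed signal, an intensity already corrected for background by the software per the file headers, was turned into log2. The deposited value table holds linear intensities after quantile normalization by the authors and served only as an alternative. Columns not used numbered 0.

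Over all 18 arrays, log2 signals were quantile-normalized, spots with a positive and significant flag of 0 were set to missing, outlier spots were left out and replicate spots averaged. Probes with over 33% missing values were removed, which kept 28665 of 41000. RefSeq gave symbols through accession (19026), symbol (1634) or synonym (624), and 7381 probes kept the name in the files. Each of the 14000 genes was read from its probe with the highest mean signal. Limma 3.58.1 in R 4.3.3 was fitted to the 18 arrays as 6 groups, with Benjamini-Hochberg adjustment over all probes and 0.05 as the threshold. Every ± after a difference is the standard error of that fit. Called means past that threshold. A bound ("at least") compares the brighter group's mean with, per array, the higher of the lowest signal well above background and the probe's own. The number of arrays limits the precision.

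The members, the 31 gene lists and the tests were chosen with earlier results of these data known. Named genes were all called probes, the genes the article discusses and GAPDH, the 8 highest and 8 lowest genes as described, and each list's extremes. Other genes, those called without AS30 control C among them, were picked for naming with their values in view. The code was tested on simulated data. Alternatives were other scalings, background corrections and filters, the deposited table, the 12 arrays alone, a replicate block, slide or scan as a block, another variance model, and each array left out. The scan block and the restriction to probes measured on all 12 arrays were chosen after seeing the data. So was the fuller account of the fit without AS30 control C.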

Additional observations from a re-analysis of the deposited data

How the results depend on the processing

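The count of probes called for the difference, 14 with all arrays, was 42 with spots lacking a positive and significant signal kept, 32 with no filter on missing values, 3 among probes well above background on all 12 arrays, 34 in the authors' deposited value table, 58 with the 12 arrays at 3 h alone, 4 with the replicate block, 26 with slide as a fixed block, 61 with slide as a random block and 6 among probes measured on all 12 arrays. Leaving out 1 array gave 8 to 1611 calls for the difference, 1231 to 3295 for SM30 against controls (2518 with all arrays), 316 to 5425 for AS30 against controls (1313) and 5261 to 8057 between controls (7668). AS30 calls were 720 with the replicate block, 52 with slide fixed, 3877 with slide random and 37 with scan fixed, and SM30 calls were 333 and 181 with slide and scan fixed. The controls of the sets share no slide or scan, so that no fit with a fixed block was possible between them, nor one with the replicate block.

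For the NF-kB list, the 8 genes higher at an unadjusted p became 4 with slide and 3 with scan as a fixed block, and 7 to 11 with 1 array left out. The 13 genes called higher after SM30 became 2 and 1 with those blocks and 6 to 14 with 1 array left out. The 3 called after AS30 became 1 with the replicate block, 0 with slide or scan fixed, 6 with slide random and 1 to 3 with 1 array left out. Over all probes, slide and scan as fixed blocks took the calls from 2518 to 333 and 181 after SM30. After AS30 they took them from 1313 to 52 and 37. No alternative turned the sign of any of the 14 called probes. The cause of these shifts was not tested.

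Treated and control arrays of one letter, each taken minus its group mean, correlated at -0.01 to 0.09 in the SM30 set. In the AS30 set these correlations were -0.09 to 0.48. With so few arrays in a group, they cannot settle whether the letters pair treated and control arrays. The study divided treated values by their corresponding control and named no letter, so the paired fit (replicate block) is given as an alternative. Values near background, as for TNF in AS30 controls, limit what these arrays can show.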
